A study of Mus musculus with 4 samples.

Results

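The genes described here are 34 mouse genes of the interferon-gamma response and of antigen presentation, taken by name from a fixed list, out of 32285 features in the deposited matrices. They comprise 9 guanylate-binding proteins, 6 immunity-related GTPases, the regulators Ciita and Nlrc5, the checkpoint ligand gene Cd274, 3 genes of peptide transport and loading, 5 genes of the immunoproteasome and its PA28 activator, 5 class I chain genes and 3 genes of the class II pathway. All 34 were present in the files, and genes and lists were chosen with earlier results of these data known. Interferon-gamma, made chiefly by NK cells and T cells, signals through its receptor and the JAK kinases to genes with GAS elements, among them that of IRF1, a factor of ISRE elements. The GTPases made in response attack the vacuoles of intracellular microbes. The same signal raises the machinery that cuts proteins into peptides, carries them into the endoplasmic reticulum and shows them on MHC molecules to T cells, and in the spleen B cells and dendritic cells carry the most class II. TNF acts through its own receptors and NF-kB, and several class I genes have NF-kB sites.

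The study measured spleen cells of 4 groups of 10-week-old mice, and its stated question was how TRIF deficiency affects cellular responses to injected TNF. Wild-type C57BL/6 mice received PBS or 9 µg of recombinant murine TNF intravenously in 100 µl, and TRIF-KO mice on the C57BL/6 background received the same. Spleens were taken after 4 h, red cells were lysed and dead cells removed, and droplet-based single-cell RNA sequencing gave 1 library per group. The product of Ticam1, TRIF, carries signals of some Toll-like receptors towards interferon genes. The number of mice behind each library and the part of Ticam1 that was deleted are not given in the sources used here.

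Ticam1 itself was read at 6.64, 3.9, 8.32 and 5.77 CPM (UMIs scaled to a total of 1e+06), first for wild-type mice given PBS and given TNF and then for the TRIF-KO mice given each, so it was no lower in the libraries labelled TRIF-KO. End-tag counts check a deletion only where the counted end lies inside it, so the genotype labels are neither supported nor opposed by these counts, and the groups are called the libraries labelled TRIF-KO. The libraries held 2683, 6855, 6508 and 8060 barcodes and between 23614028 and 67276803 UMIs (molecules counted once by their tag). Of these barcodes 2502, 5254, 5659 and 7061 passed the filters, with median depths of 6978, 4768, 4499 and 7351 UMIs. More than 10% mitochondrial UMIs were found in 22.4% of the wild-type TNF barcodes, against 6.26% to 11.6% in the other libraries. Pairs of libraries shared 3 to 15 barcodes. With 1 library per group there is no test between groups, and cells are not replicates. Every interval below is a 95% interval for counting error alone, and a difference between animals cannot be told apart from a difference between groups.

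Cells were assigned to 7 classes by markers that include no gene of the list, and each is called "-like" since it rests on those markers alone. From wild-type PBS to TRIF-KO TNF in the order above, they held 1218, 2862, 3011 and 3113 B-like cells, 437, 1063, 1289 and 1330 T-like cells, and 65, 68, 132 and 77 NK-like cells. Neutrophil-like cells numbered 159, 77, 102 and 340, and monocyte-like cells 83, 53, 126 and 83. Macrophage-like cells numbered 50, 99, 113 and 217, and the dendritic-like class was the smallest, with 35, 35, 42 and 42. Among the 10 genes leading each class by fold, 3 to 7 were its own markers in the other classes and 1, Naaa, in dendritic-like cells. Macrophage-like cells were shallow, with median depths of 909 to 1222 UMIs. All 4 values of a gene are given below in the same order of libraries, as CPM of its class. A log2 ratio is TNF over PBS within a genotype, with its interval in parentheses. A member counted as measured in a class when the 4 libraries together held 100 UMIs or more and 1 of them reached 10 CPM, and it was not so low beside another class (under 5%) that free RNA could account for it. Filtering on the highest library favours members that differ, so counts over the measured members are descriptions.

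The response differed by class, and the members did not move as a block. T-like cells had 29 measured members. Of these, 6 were at least 2-fold higher with TNF in wild-type, where 2.82% of all measured genes were, and 4 in the libraries labelled TRIF-KO (1.48% of all). No member was 2-fold lower in T-like cells, against 5.41% and 0.985% of all genes. NK-like cells had 17 measured members, with 3 higher in wild-type (3.95% of all genes) and 4 in TRIF-KO (3.38%), and none lower (all genes 12.2% and 5.48%). Their median log2 ratio was 0.54 and 0.48 in T-like cells, where all genes had -0.17 and 0.05, and 0.52 and 0.45 in NK-like cells, where all genes had -0.18 and -0.10.

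In B-like cells, the class with the most UMIs, 28 members were measured and none differed 2-fold in either genotype. Of all genes in that class 1.09% were 2-fold higher and 2.46% lower in wild-type, and 1.03% and 0.526% in TRIF-KO. The members' medians, -0.01 and -0.07, stood beside -0.18 and -0.01 for all genes.

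Monocyte-like cells had members past 2-fold in both directions. Of 26 measured members 5 were 2-fold higher in wild-type and 5 lower, where all genes had 8.48% and 20.5%. In the libraries labelled TRIF-KO 7 were higher and 1 lower, where all genes had 9.33% and 11.4%. Neutrophil-like cells had 17 measured members, with 4 higher and 2 lower in wild-type (all genes 10.4% and 26.2%) and 3 higher and 2 lower in TRIF-KO (9.22% and 21.3%). Scaled by median-of-ratios size factors, the same counts in neutrophil-like cells were 7 higher and 2 lower in wild-type and 3 higher and 1 lower in TRIF-KO. All measured genes of that class had median log2 ratios of -0.37 and -0.34. Its own markers summed to 204217, 296274, 227363 and 352058 CPM, and their part in the ratios of other genes was not tested.

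Macrophage-like cells had 16 measured members, 5 of them 2-fold higher in wild-type and 3 in TRIF-KO, where 12.7% and 16.1% of all genes were, and 2 were lower in TRIF-KO and none in wild-type (all genes in wild-type and TRIF-KO 12.6% and 4.4%). Dendritic-like cells had 18, with 2 higher and 1 lower in wild-type (all genes 8.12% and 14.8%) and 1 higher in TRIF-KO (8.25%, with 7.17% lower). Read against these percentages, the members' share in the higher direction was above the background in T-like, NK-like, neutrophil-like and monocyte-like cells of both genotypes and in wild-type macrophage-like cells. The 5 of wild-type macrophage-like cells became 2 with at most 5% mitochondrial UMIs and 3 by expression profile, where the shares of all genes were not computed. The 3 of TRIF-KO neutrophil-like cells include Gbp5, whose ratio is a bound because the PBS library had no UMI of it. The higher shares of TRIF-KO macrophage-like cells (3 of 16, all genes 16.1%) and dendritic-like cells (2 and 1 of 18, 8.12% and 8.25%) were near theirs. In the lower direction the wild-type monocyte-like share was near its background. That of TRIF-KO macrophage-like cells (2 of 16, all genes 4.4%) was above it. Without the top cell of each library neither of those 2 members, H2-Aa and H2-Ab1, reached 2-fold.

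**Figure D1:**
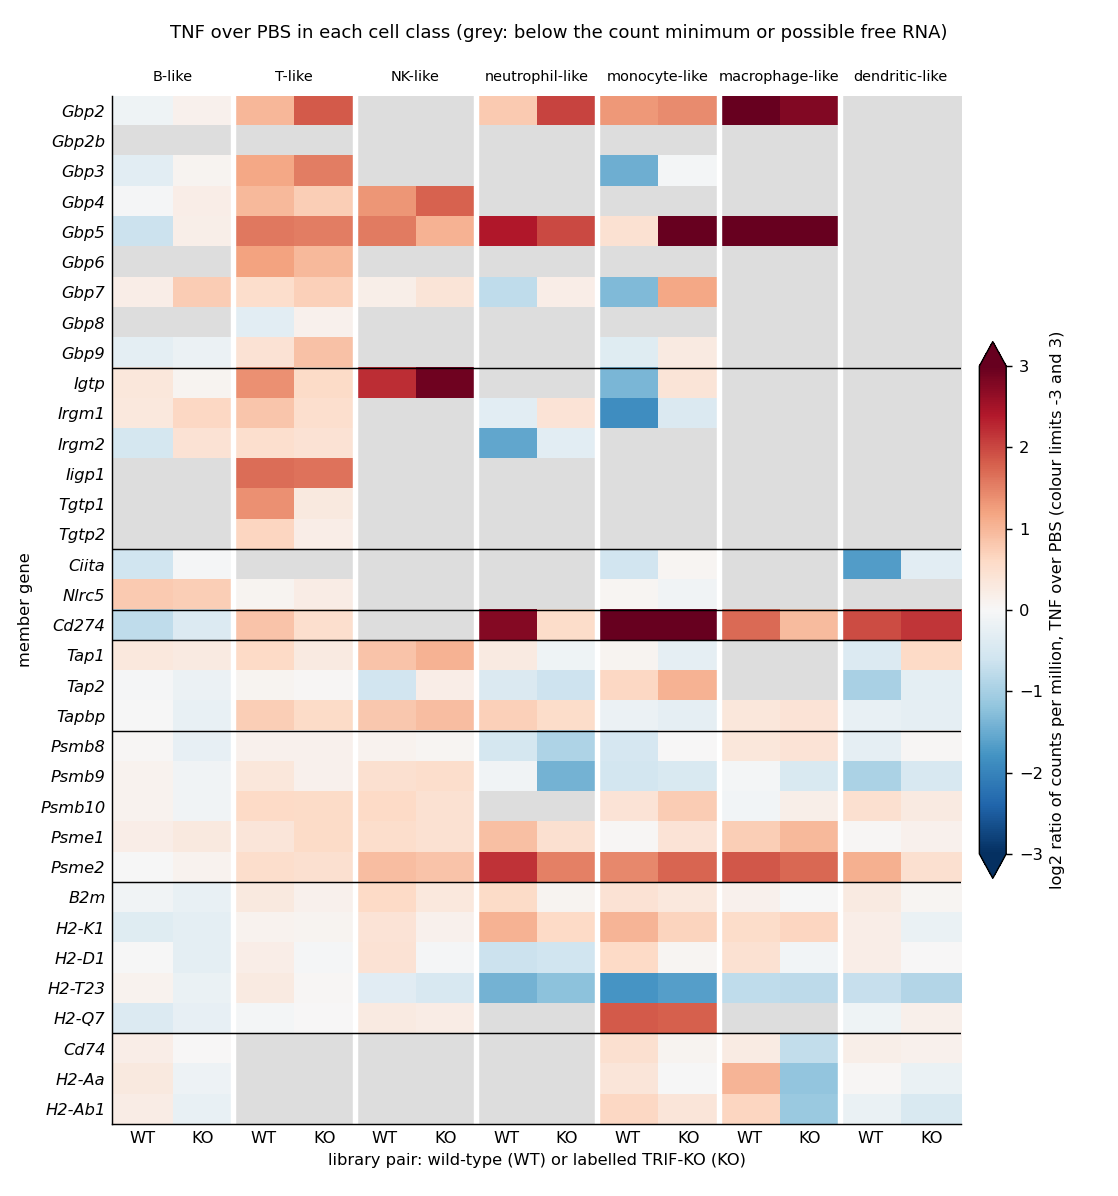
Log2 ratio of CPM, TNF over PBS, for the 34 genes (rows, in groups by role) in 7 cell classes, with the wild-type pair of libraries (WT) and the pair labelled TRIF-KO (KO) side by side; grey marks genes below the count minimum or possible free RNA. T-like cells are red over nearly all GTPases, while the monocyte-like columns hold Cd274 at 3.27 and 3.53 beside H2-T23 at -1.76 and -1.65.

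In T-like cells most measured members had a ratio above 0, and all of the measured members past 2-fold were GTPases. All 6 immunity-related GTPases had higher values with TNF in both genotypes, with a median log2 ratio of 1.10 in wild-type and 0.47 in TRIF-KO. Of the 8 measured guanylate-binding proteins 7 were above 0 in wild-type and 8 in TRIF-KO, with medians of 0.98 and 0.93. Iigp1, which encodes an effector GTPase that loads onto microbial vacuoles, was read at 35.1, 112, 19.7 and 60.5 CPM in T-like cells. Both TNF libraries stood above both PBS libraries, with log2 ratios of 1.67 (1.42 to 1.93) in wild-type and 1.62 (1.37 to 1.88) in TRIF-KO. No other class reached the minimum for Iigp1. In B-like cells its UMI counts were 0, 12, 3 and 8, and in macrophage-like cells 0, 21, 33 and 18, with 18 of the 33 in 1 cell.

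Gbp5, a guanylate-binding protein tied to inflammasome activation, gave 16.9, 50.4, 10.4 and 30.1 CPM in T-like cells, with log2 ratios of 1.57 (1.21 to 1.96) and 1.54 (1.19 to 1.89). Gbp3 gave 10.6, 23.5, 6.11 and 17.6 CPM, with log2 ratios of 1.15 and 1.53. For Gbp2, a vacuole-targeting member, the values were 49.7, 98.3, 36.9 and 132 CPM, and the highest of the 4 was the TRIF-KO TNF library. Its log2 ratio was 0.99 (0.76 to 1.21) in wild-type and 1.84 (1.66 to 2.02) in TRIF-KO. The response in TRIF-KO minus that in wild-type was 0.85 (0.57 to 1.13) for Gbp2.

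Igtp, also called Irgm3, a regulatory member of the immunity-related GTPases, went the other way between the genotypes. It gave 54.1, 139.6, 65.7 and 97.7 CPM in T-like cells, with log2 ratios of 1.37 (1.16 to 1.58) and 0.57 (0.42 to 0.72) and a difference of -0.79 (-1.05 to -0.54). Tgtp1, a T-cell GTPase, gave 17.6, 45.7, 14.3 and 17.4 CPM, so that the wild-type TNF library stood above the other 3, which lay between 14.3 and 17.6. Its log2 ratios were 1.37 and 0.28 (-0.05 to 0.62), with a difference of -1.08 (-1.57 to -0.60). Tgtp1 and its near-identical copy Tgtp2 may share reads, and Tgtp2 gave 24.5, 38.5, 21.1 and 24.3 CPM.

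Gbp6 gave 26.4, 60.5, 22.5 and 44.4 CPM in T-like cells, with log2 ratios of 1.199 and 0.98, and it has a close copy in Gbp10. Gbp4 was just under 2-fold in wild-type T-like cells, at 84.7, 166, 65.5 and 109.6 CPM. Irgm1, Irgm2, Gbp7 and Gbp9 had log2 ratios of 0.42 to 0.88 over the 2 genotypes. Gbp8 had the lowest ratio of the class in wild-type, at 51.5, 41.4, 32.6 and 35.9 CPM and -0.31 (-0.57 to -0.06), and the annotated spans of Gbp4, Gbp8 and Gbp9 overlap on 1 strand, so their reads may be shared. The other lowest members of T-like cells were class I chains, H2-Q7 at 692, 669, 614 and 622 CPM (-0.05 in wild-type) and H2-D1 at 1359, 1554, 1368 and 1326 CPM (-0.04 in TRIF-KO).

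NK-like cells held 4 measured GTPases. Igtp gave 27.1, 126, 13.9 and 105 CPM in NK-like cells, from 11, 39, 7 and 58 UMIs, and both TNF libraries lay well above both PBS libraries. Its log2 ratios were 2.21 (1.22 to 3.33) and 2.92 (1.79 to 4.30). Gbp4 gave 81.3, 203, 77.2 and 263 CPM, with 1.32 (0.69 to 1.97) and 1.77 (1.25 to 2.32). Gbp5 gave 39.4, 116, 29.7 and 61.6 CPM, with 1.56 and 1.05, while Gbp7 had 0.18 and 0.39.

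**Figure D2:**
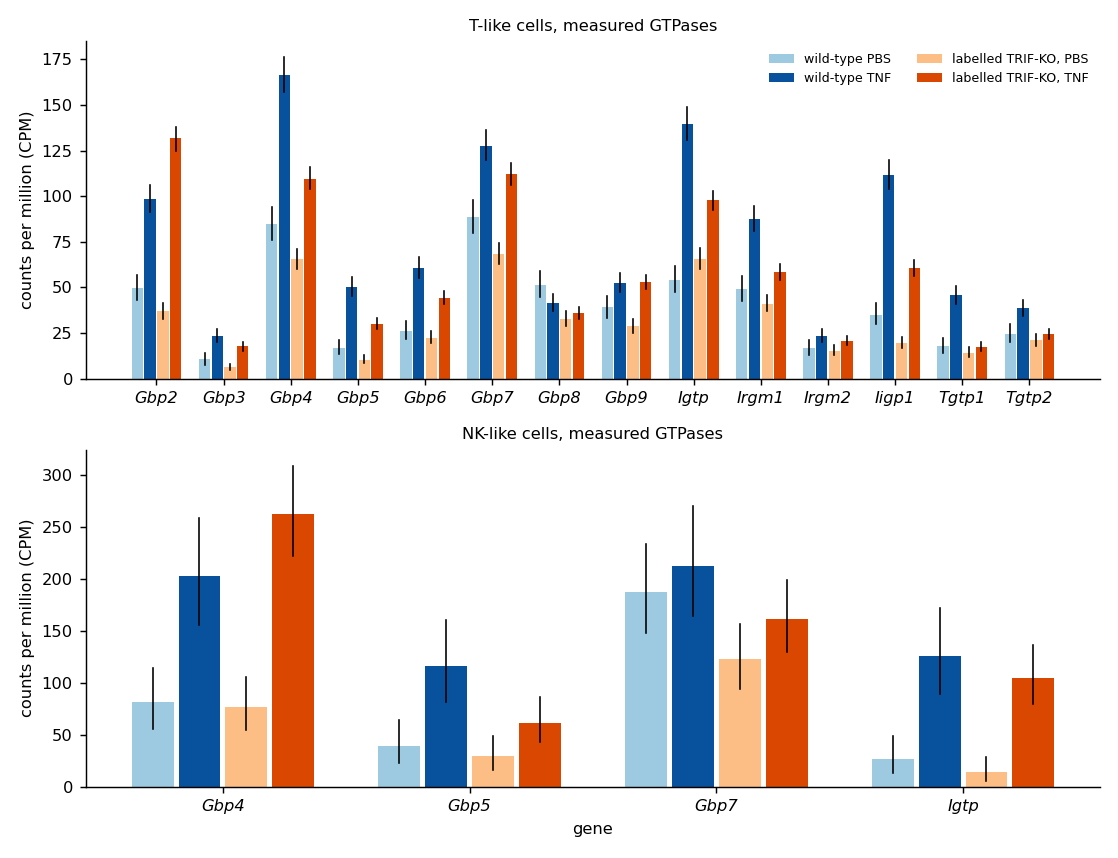
CPM of each measured GTPase (bars) in T-like cells and NK-like cells of the 4 libraries, with exact Poisson 95% intervals as black lines that cover counting error only. The TNF bar exceeds the PBS bar of the same genotype for all genes except Gbp8 in wild-type T-like cells, where the bars are 51.5 and 41.4 CPM.

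The loci sit in clusters. On GRCm38, in the GENCODE M21 annotation, Gbp2, Gbp2b, Gbp3, Gbp5 and Gbp7 lie within 144 kb of chromosome 3 (142493978 to 142638008), and Gbp4, Gbp6, Gbp8 and Gbp9 within 279.5 kb of chromosome 5 (105014150 to 105293698). Igtp, Irgm1, Irgm2, Tgtp1 and Tgtp2 are on chromosome 11. The RefSeq promoter table of the same build held 24 of the 34 genes, in 27 windows. In the 250 bases before the start, the GAS pattern TTCNNNGAA, searched on both strands, was found in 7 of the 27 windows and in 7.02% of 32851 windows of all genes. The ISRE pattern, GAAA, any 2 bases and GAAA again, on both strands, was found in 12, against 2.98% of all. Both patterns together stood in 6 windows, those of Gbp5, Gbp7, Igtp, Irgm2, Tgtp1 and Tgtp2, against 0.332% of all. These members were assembled as known interferon-gamma targets, so the count describes the choice, and a match is not a bound site.

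These stretches of immunity-related GTPases are shown because the genes were higher together with TNF in T-like cells. After TNF they were also lower in TRIF-KO than in wild-type. Each is printed 5′ to 3′ on the gene's strand, with the GAS match and then the ISRE match in capitals. They lie at chr11:58199501-58199541, forward strand (Igtp), chr11:58214892-58214932, forward strand (Irgm2), chr11:48992304-48992344, reverse strand (Tgtp1) and chr11:49064263-49064303, reverse strand (Tgtp2), none within an annotated exon. The stretch of Irgm2 lies in an intron of its longer annotated span, that of Igtp upstream of the gene, and those of Tgtp1 and Tgtp2 in introns of Olfr56 on the other strand, the former also in an intron of Tgtp1.
Igtp: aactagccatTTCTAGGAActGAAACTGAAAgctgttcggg
Irgm2: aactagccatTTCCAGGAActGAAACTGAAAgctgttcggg
Tgtp1: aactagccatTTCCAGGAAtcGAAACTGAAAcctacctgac
Tgtp2: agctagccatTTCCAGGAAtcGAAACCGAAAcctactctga
Of 41 bases, 40 were identical between Igtp and Irgm2, and 34 between Tgtp1 and Tgtp2. The wild-type log2 ratios of Igtp and Irgm2 in T-like cells were 1.37 and 0.50 (0.09 to 0.92). For comparison, the stretch before Gbp3, at chr3:142559989-142560024, forward strand, held ISRE letters (capitals, overlapping matches) and no GAS match in the window searched.
Gbp3: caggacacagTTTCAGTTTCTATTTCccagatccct
Gbp3 is shown because its wild-type ratio was 1.15 in T-like cells and -1.47 in monocyte-like cells.

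Monocyte-like cells had lower values of several GTPases with TNF in wild-type, where 20.5% of all genes were 2-fold lower. Irgm1, a regulatory member needed for resistance to mycobacteria, gave 96.1, 26.6, 73.7 and 54.7 CPM, the lowest being the wild-type TNF library, with log2 ratios of -1.85 (-2.73 to -1.07) and -0.43 (-0.91 to 0.05). Gbp3 gave 49.3, 17.7, 27.8 and 26.5 CPM, with -1.47 (-2.60 to -0.50) and -0.06. Igtp gave 54.9, 21.3, 30.4 and 39.4 CPM, with -1.37 (-2.39 to -0.47) and 0.38. The wild-type TNF library held 53 such cells and 10 to 15 UMIs of each of these 3 genes.

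Gbp7 had opposite ratios between the genotypes in monocyte-like cells, at 66.2, 26.6, 19.1 and 42.6 CPM. The ratios were -1.31 (-2.22 to -0.51) in wild-type and 1.16 (0.42 to 1.95) in TRIF-KO, with a difference of 2.42 (1.36 to 3.47). Much of the contrast lay in the PBS libraries, where TRIF-KO was lower by a log2 ratio of -1.79 (-2.54 to -1.10). Gbp5 showed the same low TRIF-KO PBS value, at 47.6, 65.7, 6.94 and 60.3 CPM, and its log2 ratios were 0.46 and 3.12 (2.07 to 4.38). In wild-type PBS 23 of its 59 UMIs came from 1 cell, and in TRIF-KO PBS 7 of 8. Without the top cell of each library the TRIF-KO ratio was 5.94.

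Gbp2 was the GTPase that was 2-fold higher in monocyte-like cells of both genotypes, at 44.4, 110.0, 36.4 and 98.1 CPM and log2 ratios of 1.31 (0.76 to 1.86) and 1.43 (0.91 to 1.97). In the TRIF-KO TNF library 55 of its 122 UMIs came from 1 cell, and without the top cell of each library that ratio was 0.957. The summed level of the macrophage marker list rose with TNF in this class, at 209.9, 2335, 275.0 and 2328 CPM, and all 12 markers had a UMI. Hmox1 (79.9, 1714, 55.5 and 1817 CPM) and Spic (15.3, 412, 19.1 and 251 CPM) made up most of it in the TNF libraries. Adgre1 (94.5, 35.5, 122 and 45.8 CPM) and Cd163 (1.61, 0, 10.4 and 0 CPM) were lower with TNF in both genotypes. The part of these transcripts in the monocyte-like results was not tested.

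Among the measured GTPases, the highest ratio of each genotype was that of Gbp5 in macrophage-like cells. Gbp5 rested on 1, 68, 3 and 92 UMIs, or 10.5, 418, 13.6 and 216 CPM, with log2 ratios of 5.32 (2.79 to 10.64) and 3.99 (2.40 to 6.29). Gbp2 rested on 2, 56, 7 and 92 UMIs, or 21, 344, 31.7 and 216 CPM, with 4.04 (2.12 to 7.12) and 2.77 (1.67 to 4.12). Both TNF libraries were far above both PBS libraries for these 2 genes, and no cell held more than 10 UMIs of either. The other 13 GTPases were below the minimum in this class.

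In neutrophil-like cells Gbp5 gave 19, 101, 0 and 38.7 CPM, with a log2 ratio of 2.41 (1.503 to 3.40) in wild-type. The TRIF-KO PBS library had no UMI of Gbp5, so the TRIF-KO ratio is at least 1.99, set against a floor of 3 UMIs. Gbp2 gave 169, 290.2, 42.3 and 171 CPM, with 0.78 (0.40 to 1.15) and 2.02 (1.23 to 2.94), the lowest library again being TRIF-KO PBS. Irgm2 gave 96.2, 32.8, 35.8 and 28.6 CPM, with -1.55 (-2.53 to -0.69) and -0.32 (-1.24 to 0.73), and wild-type PBS stood above the other 3 libraries. Gbp7 had -0.75 and 0.20, and Irgm1 -0.32 and 0.41.

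In B-like cells 6 guanylate-binding proteins and 3 immunity-related GTPases were measured, none of them 2-fold different. Igtp had the second highest wild-type ratio of the members, at 15.6, 19.9, 17.6 and 18.6 CPM and 0.35 (0.04 to 0.66). Gbp7 had the highest TRIF-KO ratio of the class, at 27.1, 31.3, 18.4 and 31.3 CPM and 0.76 (0.55 to 0.98). Gbp5 was the second lowest in wild-type, at 26.6, 17, 17.3 and 19.5 CPM and -0.65 (-0.92 to -0.38). No GTPase reached the minimum in dendritic-like cells by markers. When cells were assigned by their whole expression profile, 56, 199, 163 and 199 cells were dendritic-like, and Gbp5 then gave 7.14, 100.3, 38.7 and 58.9 CPM with ratios of 3.81 (2.54 to 5.47) and 0.61 (-0.05 to 1.30). Gbp2b was below the minimum in all 7 classes.

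In the PBS libraries, levels of the 2 GTPase groups were compared between the genotypes. In T-like cells all 8 measured guanylate-binding proteins were lower in TRIF-KO PBS than in wild-type PBS, with a median log2 ratio of -0.44 where all genes had -0.10. In B-like cells 6 of 6 were lower, with medians of -0.45 and -0.11, and in monocyte-like cells 5 of 5, with -0.83 and -0.10. In NK-like and neutrophil-like cells 3 of 3 were lower, with medians of -0.41 and -1.84 where all genes had -0.03 in each. Neutrophil-like Gbp5, with no UMI in TRIF-KO PBS, enters as a bound set by the floor. The median of all genes was below 0 in each of these classes. The share of all genes that were lower was not counted, so these counts are not read as a result about the members. The immunity-related GTPases were less uniform. In T-like cells 5 of 6 were lower (median -0.23) and in B-like cells 2 of 3 (-0.36), with 1 higher in each (0.28 and 0.17). In NK-like, neutrophil-like and monocyte-like cells all measured ones, 1, 2 and 2, were lower. Macrophage-like cells ran the other way, with 2 of 2 higher and a median of 0.49 where all genes had -0.15, from few UMIs. Dendritic-like cells assigned by profile also had higher values in TRIF-KO PBS than in wild-type PBS for Gbp2 (4.28, 30.9, 31.8 and 41.5 CPM), Gbp4 (7.14, 37.3, 66.3 and 34.6 CPM) and Gbp5. After TNF, all 6 immunity-related GTPases of T-like cells were lower in TRIF-KO, with a median of -0.63 where all genes had 0.11. In monocyte-like cells both measured ones were higher, with a median of 0.96 where all genes had 0.10. The medians in B-like, NK-like and neutrophil-like cells were -0.06, -0.26 and -0.004, from 3, 1 and 2 genes. Of the guanylate-binding proteins after TNF, 6 of 8 were lower in T-like cells and 4 of 6 in B-like cells. The numbers lower were 2 of 3 in NK-like, 3 of 3 in neutrophil-like, 2 of 2 in macrophage-like and 2 of 5 in monocyte-like cells. The largest PBS gaps were Gbp5 in monocyte-like cells at -2.78 (-4.06 to -1.71) and Gbp2 in neutrophil-like cells at -2.002 (-2.95 to -1.18). These comparisons use the same libraries as the TNF ratios, so the 2 sets of values are not independent.

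Signal carriers upstream of the GTPases were read from a list of 13 interferon-gamma signalling genes. Counts over this and the further lists are to be read beside the shares of all genes given above for each class. In T-like cells 11 of these were measured, 6 of them 2-fold higher in wild-type (all genes 2.82%) and 2 in TRIF-KO (1.48%). Irf1, a transcription factor induced by interferon-gamma, gave 101, 220.4, 91.7 and 108 CPM, with log2 ratios of 1.12 (0.97 to 1.28) and 0.23 (0.10 to 0.36) and a difference of -0.89 (-1.09 to -0.69). Socs1, the feedback inhibitor of JAK kinases, gave 48.7, 237, 49.3 and 104 CPM, with 2.29 and 1.08. The receptor chain Ifngr2 gave 23.3, 67.4, 23 and 25.5 CPM, with 1.53 and 0.15 (-0.11 to 0.42). For Irf1, Socs1 and Ifngr2 the wild-type TNF library was thus the highest by a wide margin, as it was for Tgtp1.

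Irf1 in NK-like cells gave 195, 386, 150.4 and 295 CPM, with log2 ratios of 0.99 and 0.97. Ifng, the gene of interferon-gamma, gave 108, 45.1, 111 and 43.5 CPM in NK-like cells, and both TNF libraries were lower, with -1.27 (-2.25 to -0.37) and -1.35 (-2.10 to -0.64). No other class reached the minimum for Ifng.

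In monocyte-like and neutrophil-like cells Irf1 was lower with TNF in wild-type. Monocyte-like cells gave 104, 53.2, 46 and 66.8 CPM, with log2 ratios of -0.97 (-1.59 to -0.39) in wild-type and 0.54 in TRIF-KO. Neutrophil-like cells had Irf1 at 196, 124, 192 and 94.5 CPM, lower with TNF in both genotypes. All genes of that class had median log2 ratios of -0.37 and -0.34. B-like cells had it at 60.6, 73.9, 56.8 and 57.7 CPM, all 4 libraries being within 1 doubling of each other. Dendritic-like cells had it at 57.6, 51.7, 126 and 95.7 CPM. Macrophage-like cells were below the minimum for Irf1, at 31.5, 141, 54.4 and 54 CPM, and wild-type TNF stood above the other 3 libraries there, from 23 UMIs.

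Counts over the signalling list were as follows. In monocyte-like cells 11 were measured, with 2 higher and 4 lower in wild-type (all genes 8.48% and 20.5%). In TRIF-KO 2 were higher and 1 lower (all genes 9.33% and 11.4%). Jak2, the receptor's kinase, was higher (1.68 and 1.09), and Irf8, a factor of monocyte and dendritic cell identity, was lower (-1.999 and -1.004). In dendritic-like cells 10 were measured, with 2 higher in each genotype and 4 and 2 lower, and Irf8 gave 1185, 42, 1190.0 and 249 CPM. In B-like cells 12 were measured, with 2 higher in wild-type and 1 in TRIF-KO, led by Socs3 at 6.54, 151, 4.55 and 62.6 CPM. In NK-like cells 9 were measured, with 4 higher in wild-type, 2 in TRIF-KO and Ifng lower in both. Neutrophil-like cells had 10, with 2 lower in wild-type and 1 higher and 1 lower in TRIF-KO, and macrophage-like cells 5, with Irf8 the 1 lower in each genotype.

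Cd274 encodes PD-L1, the ligand through which antigen-presenting cells restrain T cells. It had the highest wild-type log2 ratio of the list in monocyte-like, neutrophil-like and dendritic-like cells. In monocyte-like cells it gave 16.1, 156, 10.4 and 119.8 CPM from 20, 88, 12 and 149 UMIs, and both TNF libraries lay far above both PBS libraries. The log2 ratios were 3.27 (2.56 to 4.05) in wild-type and 3.53 (2.68 to 4.51) in TRIF-KO, with a difference of 0.23 (-0.86 to 1.31). The gene lies on chromosome 19 (29367455 to 29388095, GRCm38).

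In neutrophil-like cells the genotypes separated for Cd274. The values were 23, 156, 29.3 and 42.9 CPM, so that wild-type TNF stood alone above the other 3 libraries. The log2 ratio was 2.76 (1.97 to 3.63) in wild-type and 0.55 (-0.42 to 1.71) in TRIF-KO, a difference of -2.25 (-3.48 to -1.03). The wild-type TNF value rested on 62 UMIs from 77 cells, of which the highest cell held 5.

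Dendritic-like cells gave 50.4, 197, 30.8 and 136 CPM of Cd274, with 1.97 (1.30 to 2.67) and 2.14 (1.21 to 3.21). Assigned by profile, the same class gave 42.8, 169.6, 49.7 and 125 CPM, with 1.99 and 1.32. Macrophage-like cells gave 62.9, 203, 63.5 and 122 CPM, with 1.69 (0.42 to 3.23) and 0.94 (0.07 to 1.91). T-like cells had smaller ratios, at 13.4, 24.4, 11.6 and 16.5 CPM, with 0.87 and 0.51. NK-like cells were under the UMI minimum, with 6, 32, 7 and 12 UMIs or 14.8, 103, 13.9 and 21.8 CPM, the wild-type TNF library being the highest.

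B-like cells ran the other way, with Cd274 at 33.6, 19.7, 23.5 and 17.8 CPM and log2 ratios of -0.77 (-1.02 to -0.53) and -0.40 (-0.62 to -0.18), the lowest of the list in that class. In order of level, the wild-type TNF library had macrophage-like, dendritic-like, neutrophil-like and monocyte-like cells at 203, 197, 156 and 156 CPM, whose intervals overlap, then NK-like cells, T-like cells and B-like cells. Thinned to 2000 UMIs per cell, the share of monocyte-like cells with a Cd274 UMI was 6.02, 29.4, 5.69 and 22.9%, and without thinning 14.5, 64.2, 7.94 and 68.7%. The thinned share of neutrophil-like cells was 5.66, 27.8, 9.52 and 12.7%, without thinning 8.81, 41.6, 8.82 and 20%. Intervals for the monocyte-like TNF libraries were 29.4% (17.5 to 43.8%) and 22.9% (14.4 to 33.4%), exact by Clopper-Pearson. Erythroid-like cells, which should lack Cd274, had thinned shares of 0, 0, 0.322 and 0.576%, with median depths of 11315 to 15712 UMIs.

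Costimulatory genes were read from a list of 5. In dendritic-like cells 3 were measured, all 3 2-fold higher in wild-type and 2 in TRIF-KO: Cd86, a ligand of CD28, gave 135, 310.1, 115 and 195 CPM, Cd40 41.4, 132, 39.2 and 108 CPM and Icosl 57.6, 129, 81.2 and 179 CPM. In monocyte-like cells 2 of 3 were higher in wild-type and 1 in TRIF-KO, and Cd40 gave 21, 140.2, 43.4 and 106 CPM. In B-like cells 4 were measured, and Cd86 (32.5, 70.1, 23.9 and 39.8 CPM) and Cd40 (56.2, 26.2, 63.8 and 29.3 CPM) differed in opposite directions. In neutrophil-like cells Cd80, the other CD28 ligand, gave 42, 136, 55.3 and 24.1 CPM, with 1.70 (1.03 to 2.38) and -1.200 (-1.98 to -0.34). As for Cd274, wild-type TNF neutrophil-like cells stood above the other 3 libraries.

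**Figure D3:**
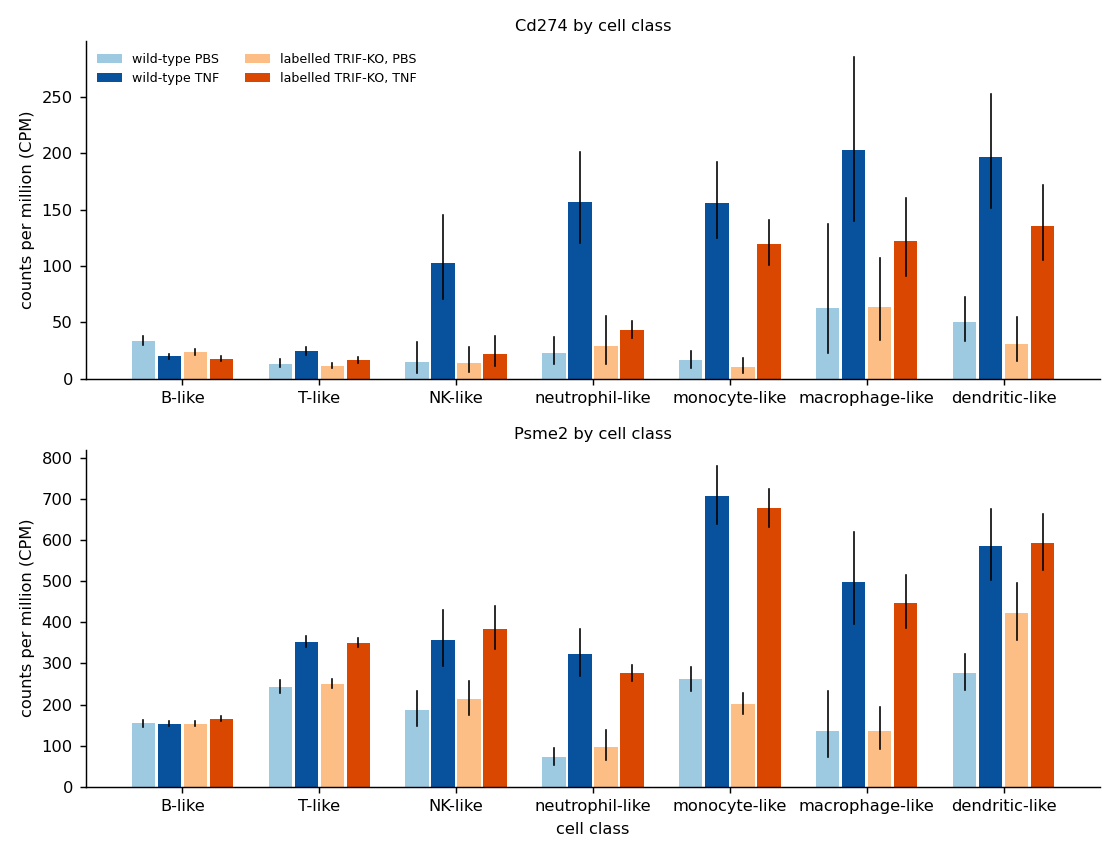
CPM of Cd274 and Psme2 (bars) in 7 cell classes of the 4 libraries, with exact Poisson 95% intervals as black lines that cover counting error only. Cd274 in neutrophil-like cells is high in wild-type TNF alone, at 156 CPM against 42.9 in TRIF-KO TNF, while Psme2 is high in both TNF libraries of the myeloid classes.

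Psme2 encodes the beta subunit of PA28, the ring that caps the proteasome and alters which peptides leave it. It was measured in all 7 classes, and it was 2-fold higher in both genotypes of 3 of them. Monocyte-like cells gave 262, 708, 201 and 677 CPM, with log2 ratios of 1.44 (1.22 to 1.65) and 1.75 (1.54 to 1.97). Neutrophil-like cells gave 71.8, 323, 97.6 and 277 CPM, with 2.17 (1.70 to 2.66) and 1.503 (0.98 to 2.08). Macrophage-like cells gave 136, 498, 136 and 446 CPM, with 1.87 (1.01 to 2.84) and 1.71 (1.15 to 2.32). The TNF libraries were above the PBS libraries in each of these classes, and the 2 TNF values of a class differed little beside that gap.

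Dendritic-like cells gave 277, 585, 423 and 592 CPM of Psme2, with 1.08 (0.76 to 1.40) and 0.49 (0.20 to 0.78). NK-like cells had 0.93 and 0.85, T-like cells 0.54 and 0.48, and B-like cells -0.01 and 0.11. Psme1, the alpha subunit, whose gene lies in the same 13 kb of chromosome 14 (55578123 to 55591113), had smaller ratios in the myeloid classes. In monocyte-like cells these were 0.02 and 0.41, in neutrophil-like cells 0.90 and 0.49, and in macrophage-like cells 0.75 and 0.96.

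The catalytic subunits Psmb8, Psmb9 and Psmb10 replace Psmb5, Psmb6 and Psmb7 when the immunoproteasome forms. None of the 3 was 2-fold higher in any class where it was measured. Psmb10 in neutrophil-like cells was below the UMI minimum, with 7, 5, 3 and 75 UMIs. The share of each inducible subunit in its pair does not depend on the scaling of a class. In monocyte-like cells Psmb8 made up 68.4, 46.1, 69.4 and 55.9% of the pair's UMIs, and both TNF libraries were lower. Their intervals, 46.1% (41 to 51.3%) and 55.9% (52.7 to 59%), lay below those of the PBS libraries, 68.4% (65 to 71.6%) and 69.4% (65.9 to 72.7%). Psmb9 made up 53.5, 29.1, 56.5 and 35.5% in monocyte-like cells, again lower in both TNF libraries. Psmb10 gave 67.4, 61, 57.1 and 65.7%, with no common direction.

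The constitutive partners were higher in the same cells. Psmb5 gave 200.3, 358, 196 and 351 CPM and Psmb6 132, 256, 119.7 and 204 CPM in monocyte-like cells. Psmb8 gave 434, 307, 444 and 445 CPM and Psmb9 153, 105, 155 and 113 CPM, with Psmb9 at -0.54 (-0.99 to -0.11) and -0.46 (-0.79 to -0.14). Of the 8 constitutive proteasome genes listed, 7 had a ratio above 0 in each genotype of this class, with medians of 0.75 and 0.58, and none was 2-fold higher.

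Dendritic-like cells had Psmb9 at 425, 219.6, 532 and 381 CPM, with -0.95 (-1.36 to -0.56) and -0.48 (-0.78 to -0.18), and shares of 78.4, 53.1, 79.5 and 71.3%. In macrophage-like cells the Psmb9 shares were 89.5, 50.9, 86 and 54.5%, in neutrophil-like cells 83, 62.9, 72.6 and 59.7%. The macrophage-like wild-type PBS share for Psmb9 rests on 2 UMIs of the constitutive partner. Psmb10 shares were 43.5, 55.7, 47.2 and 56.3% in dendritic-like cells, higher in both TNF libraries. Their intervals overlap (34.3 to 53%, 43.3 to 67.6%, 36.5 to 58.1% and 47.2 to 65.2%). In neutrophil-like cells Psmb10 shares were 17.9, 16.7, 13.6 and 36.6%, highest in TRIF-KO TNF, from 7, 5, 3 and 75 Psmb10 UMIs. The TRIF-KO intervals overlap, at 2.91 to 34.9% with PBS and 30 to 43.6% with TNF. Psmb8 shares were 62.1, 68.4, 76.1 and 65.9% in macrophage-like cells, and their intervals overlap throughout. These were 42.3 to 79.3%, 54.8 to 80.1%, 64.5 to 85.4% and 59.1 to 72.2%, so no direction can be read from them. Neutrophil-like Psmb9 gave 59.6, 55.5, 146 and 54.8 CPM, 2-fold lower with TNF in TRIF-KO at -1.42 (-1.90 to -0.91), and the TRIF-KO PBS library stood above the other 3. Shares moved less in B-like and T-like cells. Psmb8 shares were 77.1, 78.4, 77.2 and 75.7% in B-like cells, and Psmb10 shares 70.3, 74.8, 68.1 and 73.1% in T-like cells.

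**Figure D4:**
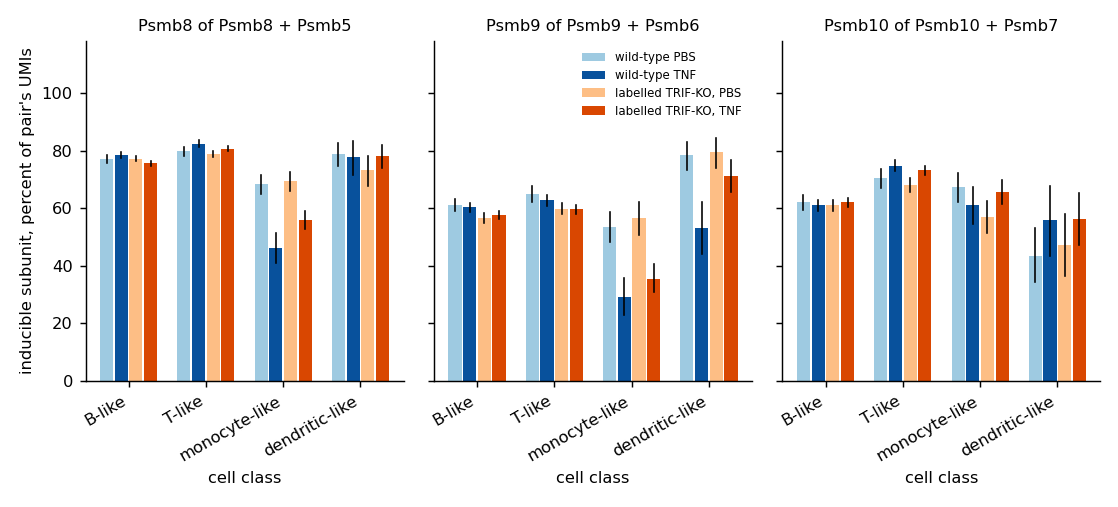
Percent of each pair's UMIs held by the inducible subunit (Psmb8, Psmb9 or Psmb10 beside its constitutive partner) in 4 cell classes and 4 libraries, with exact 95% intervals for counting error. Monocyte-like cells have lower Psmb8 and Psmb9 shares in both TNF libraries (Psmb9 29.1% and 35.5% against 53.5% and 56.5%), while the Psmb8 bars of B-like cells lie between 75.7% and 78.4%.

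Peptide transport and loading, through Tap1, Tap2 and the TAP-bound chaperone Tapbp, had modest ratios. Tap1, a subunit of the peptide pump, gave 101, 183, 98.9 and 205 CPM in NK-like cells, with 0.86 (0.26 to 1.48) and 1.05 (0.56 to 1.56). Tap2, its partner, gave 106, 70.8, 91 and 105 CPM there and had the lowest wild-type ratio of the class, -0.58 (-1.39 to 0.19). In monocyte-like cells Tap2 gave 57.3, 88.7, 44.2 and 90.9 CPM, with 0.63 (0.08 to 1.17) and 1.04 (0.55 to 1.55), and 0.94 in TRIF-KO without the top cell of each library. In dendritic-like cells Tap2 gave 101, 51.7, 112 and 91.7 CPM, with -0.96 (-1.86 to -0.14) in wild-type. Tap1 in dendritic-like cells gave 171, 129, 157 and 237 CPM and had the second highest TRIF-KO ratio there, 0.60 (0.13 to 1.08). Tapbp ratios ran from -0.27 in dendritic-like to 0.93 in NK-like cells of TRIF-KO.

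The class I chains separated from each other in monocyte-like cells. H2-Q7, a Qa-2 chain of the non-classical class I family, gave 71.1, 256, 72.9 and 253 CPM, with both TNF libraries above both PBS libraries and log2 ratios of 1.85 (1.45 to 2.25) and 1.79 (1.44 to 2.16). Its close copy H2-Q6 gave 16.1, 51.5, 13.9 and 44.2 CPM, and reads may be shared between the pair. H2-K1, a classical class I heavy chain, gave 911, 1859.6, 1149 and 1814 CPM, with 1.03 (0.91 to 1.15) and 0.66 (0.56 to 0.76). H2-T23, which encodes Qa-1, the ligand of the NK receptor CD94/NKG2A, gave 307, 90.5, 331 and 105 CPM. It was lower in both TNF libraries, with -1.76 (-2.21 to -1.34) and -1.65 (-1.95 to -1.36). H2-D1 had 0.60 and 0.07, and B2m, the light chain shared by all class I molecules, 0.44 and 0.32.

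In neutrophil-like cells H2-K1 had the highest ratio of the measured chains and H2-T23 the lowest. H2-K1 gave 423, 868, 409.8 and 616 CPM, with 1.04 (0.81 to 1.26) and 0.59 (0.33 to 0.86). H2-T23 gave 230.3, 85.8, 244 and 103 CPM, with -1.42 (-2.001 to -0.89) and -1.24 (-1.61 to -0.86). H2-D1, at 2261, 1448, 2078 and 1377 CPM, was lower in both genotypes (-0.64 and -0.59), where all genes had medians of -0.37 and -0.34. H2-Q7 was below the UMI minimum there, with 10, 17, 2 and 40 UMIs.

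H2-T23 also had the lowest TRIF-KO ratio of the list in NK-like and dendritic-like cells. The ratios were -0.35 (-0.77 to 0.06) and -0.48 (-0.81 to -0.14) in NK-like cells, -0.68 (-1.13 to -0.25) and -0.88 (-1.29 to -0.48) in dendritic-like cells, and -0.77 (-1.77 to 0.23) and -0.80 (-1.35 to -0.24) in macrophage-like cells. The values behind them were 328, 257, 340.4 and 245 CPM in NK-like, 306, 191, 342 and 185 in dendritic-like and 199, 117, 245 and 141 in macrophage-like cells. In B-like cells the ratios were 0.11 and -0.20, and in T-like cells 0.26 and 0.05. Thinned to 2000 UMIs, the share of monocyte-like cells with an H2-T23 UMI was 41, 15.7, 40.7 and 15.7%, and that of erythroid-like cells 11.8, 11.1, 6.11 and 10.9%.

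In the lymphoid classes no class I chain differed 2-fold. In NK-like cells B2m gave 2589, 3907, 2551 and 3174 CPM, with 0.59 (0.47 to 0.71) and 0.32 (0.21 to 0.42), and NK-like cells had the highest H2-K1, H2-D1 and H2-Q7 of the 7 classes in both PBS libraries. H2-D1 there gave 2437, 3269.8, 2683 and 2618 CPM, the second lowest TRIF-KO ratio of the class (-0.04). In T-like cells the 5 chains ran from -0.05 to 0.29 in wild-type. In B-like cells H2-K1 gave 1213, 940.0, 1251 and 1018 CPM, with -0.37 (-0.40 to -0.33) and -0.30 (-0.33 to -0.27), and no class I chain was above 0 in TRIF-KO.

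**Figure D5:**
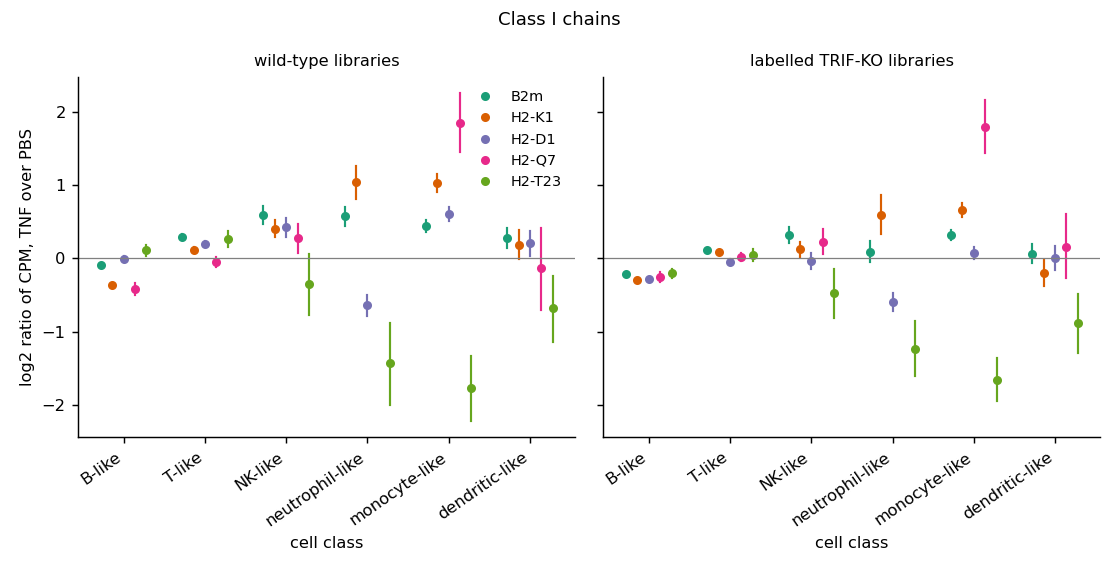
Log2 ratio of CPM, TNF over PBS, of the 5 class I chain genes in 6 cell classes, wild-type libraries on the left and libraries labelled TRIF-KO on the right, with 95% intervals for counting error; H2-Q7 is left out of neutrophil-like cells. H2-T23 (at -1.76 and -1.65) and H2-Q7 (at 1.85 and 1.79) lie at opposite ends in monocyte-like cells of both genotypes.

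An NF-kB motif stood in the upstream 250 bases of B2m, H2-K1, H2-D1, H2-Q7, Gbp5 and H2-Aa, and in 3.9% of all windows. The stretches of H2-K1, H2-Q7 and B2m are shown because these chains were higher with TNF in monocyte-like cells, with the NF-kB match in capitals and, for B2m, an ISRE match before it. They lie at chr17:34000438-34000468, reverse strand (H2-K1), chr17:35439012-35439041, forward strand (H2-Q7) and chr2:122147538-122147580, forward strand (B2m), the last within an intron of Patl2.
H2-K1: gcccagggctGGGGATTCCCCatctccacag
H2-Q7: gcccatggctGGGGATTCCCatctccccag
B2m: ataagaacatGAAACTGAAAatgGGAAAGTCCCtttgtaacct
H2-T23 had an ISRE match and no NF-kB match in the window searched, which says only that these letters were not found there. H2-D1, with a match, was lower in neutrophil-like cells, as the values above show.

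Other genes of class I presentation were read from a list of 13. In monocyte-like cells 8 were measured, with 1 higher in wild-type (H2-Q6) and 2 in TRIF-KO, H2-Q6 and the chaperone Calr at 606, 687, 329 and 804 CPM. In neutrophil-like cells 6 were measured, with 1 higher and 2 lower in wild-type and 3 lower in TRIF-KO. Among these H2-Q10 gave 492, 174, 491 and 142 CPM and H2-T24 62.3, 5.05, 45.5 and 13.3 CPM, both lower in both genotypes. In B-like cells 11 were measured, with 2 lower in wild-type. In T-like, NK-like, macrophage-like and dendritic-like cells 11, 8, 3 and 6 were measured, and none differed 2-fold.

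Nlrc5, the transactivator of class I genes, did not follow a common course. In B-like cells it had the highest wild-type ratio of the list, at 16.8, 29.1, 15.1 and 25.3 CPM and 0.79 (0.51 to 1.08) and 0.74 (0.51 to 0.98). T-like cells gave 50.8, 53.5, 50.7 and 59.3 CPM, with 0.07 and 0.23. Monocyte-like cells gave 27.5, 28.4, 22.6 and 20.9 CPM, with 0.05 (-0.91 to 0.95) and -0.11 (-0.95 to 0.73). In NK-like (46.8, 29, 43.5 and 43.5 CPM), neutrophil-like (9.48, 10.1, 0 and 16), dendritic-like (25.2, 45.2, 33.6 and 79.8) and macrophage-like cells (10.5, 30.7, 27.2 and 35.2) it was below the UMI minimum.

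Ciita, the master regulator of class II genes, was lower with TNF in wild-type dendritic-like cells. It gave 769.9, 239, 490.0 and 391 CPM from 428, 74, 175 and 196 UMIs, and wild-type TNF was the lowest of the 4 libraries. The log2 ratio was -1.69 (-2.06 to -1.33) in wild-type and -0.33 (-0.63 to -0.02) in TRIF-KO, a difference of 1.35 (0.89 to 1.81). Assigned by profile, which takes in more cells, the class gave 717, 222, 404 and 319 CPM, with -1.69 (-1.93 to -1.46) and -0.34 (-0.57 to -0.11). The 15 dendritic markers that define the class summed to 2855, 739.7, 2509 and 1186 CPM, also lowest in wild-type TNF, and the part of this shift in the Ciita result was not tested. The thinned share of dendritic-like cells with a Ciita UMI was 62.9, 22.9, 42.1 and 43.9%, and erythroid-like cells had none (up to 1.6% by the interval in the smallest library).

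B-like cells had Ciita at 292, 192, 267 and 259 CPM, with -0.60 (-0.68 to -0.52) and -0.04 (-0.10 to 0.02), the wild-type TNF library again being the lowest. Monocyte-like cells gave 153, 103, 93.7 and 97.3 CPM, with -0.57 (-1.02 to -0.14) and 0.05 (-0.33 to 0.44). Ciita was below the minimum in T-like (0.706, 1.52, 1.83 and 1.29 CPM), NK-like (2.46, 0, 1.98 and 3.63), neutrophil-like (0, 0, 6.5 and 1.05) and macrophage-like cells (31.5, 98.3, 145 and 14.1).

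The class II chains and the invariant chain did not follow Ciita in dendritic-like cells. Cd74, the invariant chain that guides class II through the cell, gave 15698, 17684, 14076 and 15415 CPM, H2-Aa 7602, 7842, 7605 and 6649.7 CPM and H2-Ab1 8456, 7406, 7980.3 and 5848 CPM. Their wild-type log2 ratios lay between -0.19 and 0.17, and those of TRIF-KO between -0.45 and 0.13. H2-DMa, of the peptide-loading complex of class II, gave 574, 281, 563 and 271 CPM, 2-fold lower in both genotypes. In monocyte-like cells H2-DMa gave 227, 97.6, 304 and 149.6 CPM, also 2-fold lower in both. Dendritic markers in monocyte-like cells, with 15 of 15 detected, summed to 472, 133, 555 and 119 CPM and were likewise lower in both TNF libraries, Cd209a among them at 68.6, 14.2, 180.4 and 2.41 CPM. Their part in the class II values was not tested. Of 13 further class II genes, 9 were measured in dendritic-like cells, with 1 higher in each genotype and 2 and 3 lower, and 8 in monocyte-like cells, with 1 higher and 3 lower in wild-type and 1 lower in TRIF-KO.

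B-like cells gave H2-Aa 3473, 4250.4, 4099 and 3698 CPM, H2-Ab1 2899.6, 3365, 3279.8 and 2817 CPM and Cd74 9987, 11539.6, 10050.1 and 10063 CPM. All ratios were small and of opposite sign between the genotypes for the 2 chains (0.29 (0.27 to 0.31) and -0.15 (-0.16 to -0.13) for H2-Aa). Scaled by median-of-ratios factors, no B-like member reached 2-fold either. Monocyte-like cells gave H2-Aa 1764, 2285, 2379 and 2344 CPM and H2-Ab1 1688, 2605, 2069 and 2650.0 CPM, with wild-type ratios of 0.37 and 0.63. Cd74 in T-like, NK-like and neutrophil-like cells, H2-Aa in T-like and neutrophil-like cells and H2-Ab1 in T-like cells were under 5% of their level in another class of the same library, and they were not counted there.

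Psmb10 was the second lowest member of wild-type macrophage-like cells, at 189, 178, 122 and 139 CPM and -0.08 (-0.98 to 0.85). Macrophage-like cells had class II ratios of opposite sign between the genotypes. H2-Aa gave 1017, 2065, 2313 and 1017 CPM, with 1.02 (0.69 to 1.36) and -1.18 (-1.37 to -0.997), and H2-Ab1 gave 923, 1450.5, 1651 and 761 CPM, with 0.65 (0.29 to 1.02) and -1.12 (-1.34 to -0.90). In the TRIF-KO PBS library 188 of 510 H2-Aa UMIs came from 1 cell. Without the top cell of each library the TRIF-KO ratios were -0.80 and -0.88, and the wild-type H2-Aa ratio was 0.99, so none then reached 2-fold. In the same TRIF-KO PBS cells erythroid markers summed to 96406 CPM, against 8720 to 14134 in the other libraries, with 10 of 11 detected and Rhag at 0. Igkc, an antibody gene of B cells, gave 73.4, 264, 716 and 169 CPM. Dendritic markers summed to 429.9, 418, 821 and 378 CPM, highest in the same library, with 12 of 15 detected and Xcr1, Snx22 and Itgae at 0. Among them Flt3 gave 0, 30.7, 104 and 14.1 CPM and Cd209a 0, 0, 49.9 and 0 CPM. The part of these transcripts in the class II result was not tested.

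The remaining lists were other interferon-inducible GTPases and other regulators of class I and class II genes. Relb, an NF-kB subunit, was 2-fold higher with TNF in both genotypes of every class except B-like cells. Neutrophil-like cells gave 27.1, 235, 9.76 and 122 CPM of it. The values of T-like cells were 27.5, 99.6, 23.9 and 54 CPM. In B-like cells Relb gave 61.2, 61.1, 49.8 and 59.9 CPM. Of the 7 regulators listed, 7 were measured in B-like, T-like and monocyte-like cells, 6 in neutrophil-like, 5 in NK-like, 3 in dendritic-like and 2 in macrophage-like cells. Besides Relb, Nfya (B-like) and Nfyb (NK-like and neutrophil-like) were 2-fold lower in wild-type, and Nfyb was 2-fold higher in TRIF-KO monocyte-like cells.

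Of the 10 other GTPases, 4 were measured in B-like and T-like cells, 3 in NK-like, 2 in monocyte-like and 1 in each remaining class. 9930111J21Rik2, an interferon-inducible GTPase gene, was lower with TNF, at 254, 96.7, 175 and 129 CPM in T-like cells and -1.40 (-1.53 to -1.26) in wild-type. In neutrophil-like cells it gave 199, 12.6, 250.4 and 56.9 CPM, and in macrophage-like cells 231, 43, 268 and 75.2 CPM, 2-fold lower in both genotypes. Its neighbour 9930111J21Rik1 gave 10.4, 2.9, 7.21 and 4.83 CPM in T-like cells, and reads may be shared between the pair. Ifi47, another immunity-related GTPase, was 2-fold higher in wild-type NK-like cells, at 158, 338, 172 and 335 CPM, and Gvin1, a very large inducible GTPase, in TRIF-KO T-like cells, at 13.9, 16.3, 5.98 and 12.5 CPM.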

How the data were processed

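Spleen cells of 4 groups were measured by droplet-based single-cell RNA sequencing, with 1 library per group. The deposited matrices hold raw UMI counts per gene and barcode. The submitters' processing notes name Cell Ranger 3.0, Seurat 4.1.1 and the build mm10, and per the file headers the matrices were written by Cell Ranger 6.0.1. Counts cover 32285 features, and every deposited barcode had at least 500 UMIs.

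Cells needed 200 genes or more and no more than 10% mitochondrial UMIs. A cell joined a class when enough markers of its list had a UMI (3 to 8 by list). Cells that met the gates of several classes were left out (150, 220, 272 and 458), except that monocyte, macrophage and dendritic gates were resolved by the larger share of markers. Leaving them out is how doublets were treated, and no doublet caller was run. CPM were computed from the summed UMIs of a class in a library. Ratios have exact conditional binomial intervals, levels exact Poisson and shares Clopper-Pearson intervals, all at 95% and for counting error only. Differences between responses used 0.5 added counts and a normal interval. A gene with 0 UMIs was set to a floor of 3. Python 3.11.15 with numpy 2.4.6, scipy 1.17.1 and pandas 2.3.3 was used, and the interval code was tested on simulated data.

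All 34 genes were accounted for in each class. Named with 4 values were those past 2-fold, Irf1, Ciita, Nlrc5 and Cd274 in every class, and the 2 highest and 2 lowest of a class, plus up to 4 per further list. Genes and lists were chosen with earlier results of these data known. A gene the rule names is not reported here. Any gene given 4 values beyond that rule was chosen after its values were seen, and so was the alternative that counts possible free RNA. Alternatives covered scaling, filters, the weight of cells, the top cell, the class assignment, thinning and the fold. Promoters come from RefSeq (GRCm38.p6), positions from GENCODE M21.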

Additional observations from a re-analysis of the deposited data

Results flagged for a closer look

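Ratios of opposite sign between the genotypes, each at least 1.5-fold from 1, were found in 3 cases, and none of these differences was tested, since each group is 1 library. Gbp7 in monocyte-like cells had a log2 ratio of TNF to PBS of -1.31 in wild-type and 1.16 in TRIF-KO. H2-Aa in macrophage-like cells had 1.02 and -1.18, and H2-Ab1 had 0.65 and -1.12.

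Ratios of opposite sign between classes of the wild-type libraries, past 2-fold in each, were found for 2 genes and were not tested either. Gbp3 had 1.15 in T-like and -1.47 in monocyte-like cells. Igtp had 1.37 in T-like and 2.21 in NK-like cells, and -1.37 in monocyte-like cells.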

How the results depend on the processing

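No paired analysis was possible because each group holds 1 library, and for the same reason no replicate could be left out. None of the 420 log2 ratios, all taken from members past 2-fold as reported, reversed its direction. Counts of members and shares of cells could not be scored as reversed. Of 280 counts of members over the alternatives, 238 stayed within 1.5 times the reported count and 42 did not, and of 420 log2 ratios of single members 403 stayed within their counting interval and 17 did not, while between 0 and 5 of the 60 ratios fell under 2-fold in each setting. Shares of cells with a UMI depended on thinning: 38 of 57 left their counting interval without it, and 19 did not. All 39 differences between responses stayed within theirs with 1 added to each count. The causes of these shifts were not tested beyond what each setting changes by construction.

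The shares of all genes were not computed under the settings of this paragraph. The counts below therefore show only how the members' own counts moved. With 1.5-fold in place of 2-fold, the members higher and lower were 1 and 3 in wild-type B-like cells, and 3 were higher in TRIF-KO. T-like cells had 14 and 8 higher in the 2 genotypes, NK-like 8, neutrophil-like 7 and monocyte-like 8 higher in wild-type. Neutrophil-like cells had 4 and 5 lower, macrophage-like 1 and 4 lower with 6 higher in TRIF-KO, and dendritic-like 4 and 1 lower with 2 higher in TRIF-KO. With median-of-ratios scaling, 10 were higher in wild-type T-like, 5 in NK-like and 7 in neutrophil-like cells, and 1 was lower in TRIF-KO neutrophil-like cells. With no minimum of UMIs, NK-like cells had 9 and 10 higher and 1 lower, neutrophil-like 4 and monocyte-like 3 lower in TRIF-KO, macrophage-like 11 and 5 higher with 3 and 4 lower, and dendritic-like 6 and 3 higher with 2 and 3 lower. At most 5% mitochondrial UMIs gave 2 higher in wild-type macrophage-like cells and 2 lower in wild-type dendritic-like cells. By expression profile 3 were higher in wild-type macrophage-like cells, and 5 higher and 2 lower in wild-type dendritic-like cells. The 2 lower members of TRIF-KO macrophage-like cells became 0 under the 5% filter, with cells weighted equally, without the top cell and by expression profile. The macrophage-like, NK-like, neutrophil-like and dendritic-like classes had the most members below the minimum or set aside, 18, 17, 17 and 16. The part of depth in these numbers was not tested.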
